A study of Mus musculus with 18 samples.

Results

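The cells' own relatives of the reprogramming factors Mef2c, Gata4 and Tbx5 were followed through the first days of heart muscle reprogramming in mouse fibroblasts. They are 10 genes, taken by symbol from a deposited table of 24514: Mef2a and Mef2d of the MEF2 family, Gata2, Gata3 and Gata6 of the GATA family, and Tbx2, Tbx3, Tbx15, Tbx18 and Tbx20 of the T-box family. The 3 factors themselves are supplied to the cells by a doxycycline-inducible construct, whereas these relatives come only from the cells' own genome. The table held counts for all 10, and 9 passed the filter on low counts, Tbx20 being the exception.

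The cells were the line iMGT-Myh6-eGFP-MEF, mouse embryonic fibroblasts that carry inducible Mef2c, Gata4 and Tbx5 and a green fluorescent reporter for the cardiac gene Myh6. All groups shared this background and the same reprogramming medium. They differed in the siRNA, either a control (siControl) or one against Chst7 (siChst7), which encodes a Golgi sulfotransferase of chondroitin synthesis, and in the day of harvest. Cells of day 0 had been transfected but had received no doxycycline, and those of days 1 and 3 had received 1 µg/mL for that time. Each of the 6 groups had 3 libraries labelled as biological replicates, each from 40 pooled wells plated at 1000 cells per well. A single line was used, so the spread between replicates does not cover differences between lines.

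MEF2, GATA and T-box proteins are DNA-binding regulators, and the members of each family recognise closely similar sites. MEF2 proteins switch on muscle genes when class II histone deacetylases leave them. GATA factors work with FOG cofactors, and Gata6 acts beside Gata4 in the forming heart. Within the T-box family Tbx5 and Tbx20 drive chamber muscle genes, whereas Tbx2 and Tbx3 repress them in the atrioventricular canal and conduction system.

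Total counts ran from 30590742 to 50021142 per library. Chst7 averaged 19.2, 37.6 and 25.1 CPM (counts scaled to library totals that were adjusted by TMM) in siControl at days 0, 1 and 3, and 0.438, 0.755 and 2.16 CPM in siChst7. Of 8 fibroblast markers, 7 were above 1 CPM in every group, and Thy1 was at 0 counts in siChst7 at day 0. The summed level of 7 cardiomyocyte markers rose from between 9.79 and 11.2 CPM at day 0 to between 819 and 881 CPM at day 3 in siControl, and from 21.9 to 22.5 CPM to between 982 and 1240 CPM in siChst7. In each arm 2 of the 7 were above 1 CPM at day 0 and 5 at day 3. Most of the sum was Tnnt2, at 9.65 and 680 CPM in siControl and 20.8 and 815 CPM in siChst7. In 1 siChst7 library of day 3 (replicate 1), the ribosomal RNA precursor Rn45s took 1.96% of counts, against 0.131% to 0.654% in the other 17, and the 3 libraries of that group differed more among themselves than those of any other (chi-square per degree of freedom 21.5 to 56.7, against 2.9 to 14.8). In that group the pairs with replicate 2 gave 56.7 and 49.1, and replicates 1 and 3 gave 21.5, so the library apart from the others was not the one with the most Rn45s. Results for that group are therefore also given without single libraries where the call changes.

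At day 0 the relatives spanned a wide range of levels. Levels were compared between genes as CPM per kilobase of the deposited gene length. In siControl at day 0 Mef2a stood highest at 18.8 ± 0.475 CPM per kb (SD, n = 3), then Mef2d at 14.8 ± 0.422, Tbx18 at 13.4 ± 0.73, Tbx3 at 9.8 ± 0.188 and Tbx15 at 8.58 ± 0.488. Gata6 followed at 3.41 ± 0.131, Gata2 at 1.59 ± 0.118, Gata3 at 0.513 ± 0.0153 and Tbx2 at 0.103 ± 0.033 CPM per kb. Tbx20 came last at 0.00439 CPM per kb. No neighbouring genes in this order overlapped in their 3 libraries.

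The order was partly rearranged by day 3. Tbx2 climbed from the 9th to the 7th place in siControl, where its level of 5.16 ± 0.303 CPM per kb overlapped that of Gata6 at 5.46 ± 0.183. In siChst7 it reached the 4th place, at 6.9 ± 0.475 CPM per kb, and overlapped Tbx3 at 6.52 ± 0.19. Mef2a and Mef2d had the first and the second place in all 6 groups, although Mef2d overlapped Tbx3 in siChst7 at day 0. Tbx18 was above Tbx3 in siControl on each day, with an overlap at day 1, but below it in siChst7 at day 0 (9.89 ± 0.667 against 11.8 ± 0.83 CPM per kb, no overlap) and day 1 (8.19 ± 0.0645 against 9.21 ± 0.435).

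**Figure D1:**
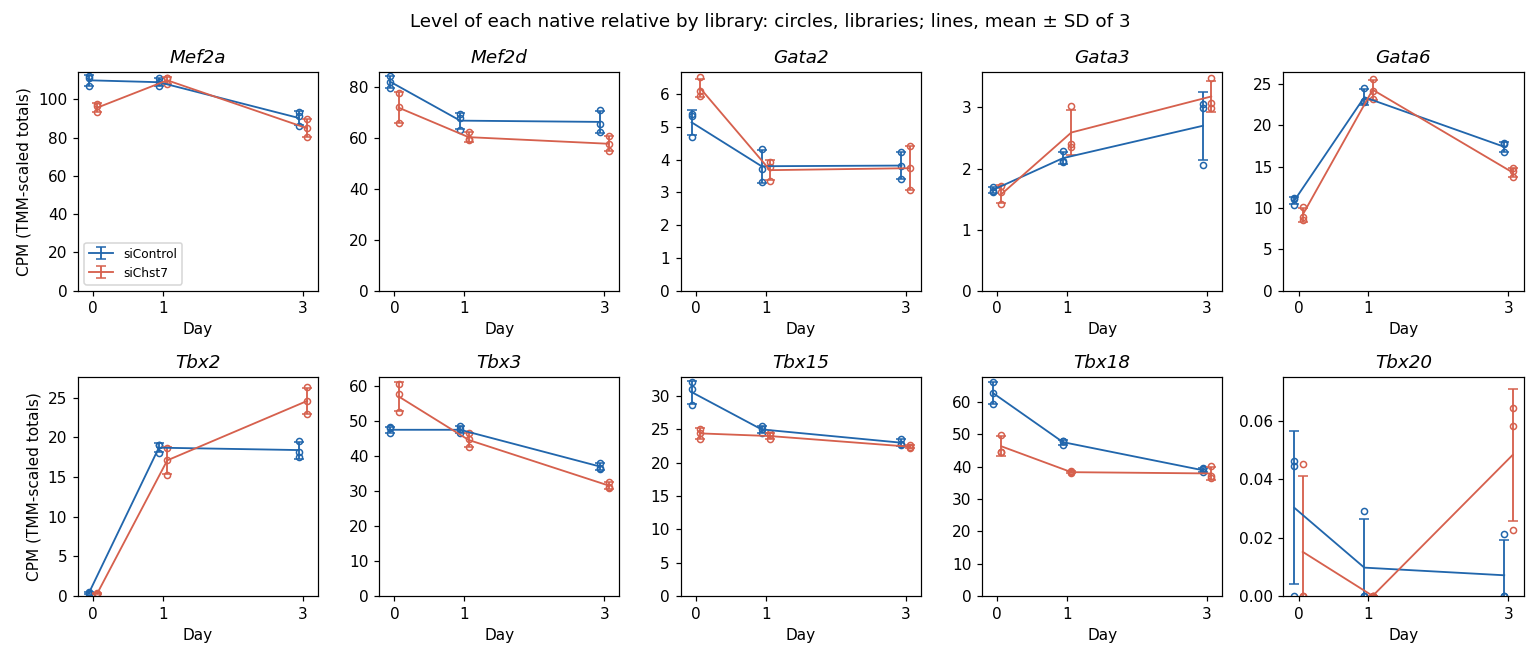
Level of each of the 10 relatives in CPM (vertical axis, own scale per gene, starting at 0) against day (horizontal axis), with circles for the 18 libraries and lines for the mean ± SD of 3. Tbx2 rises from under 0.5 CPM to above 15 CPM in both arms by day 1, Gata6 peaks at day 1, and Tbx18 declines in siControl from 62.8 to 38.9 CPM; the points of Tbx20 stand for 0 to 2 counts per library.

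Induction changed the make-up of each family. Shares of the family sum in CPM per kb were taken over 4 MEF2 genes, 6 GATA genes and 16 T-box genes. For the 3 delivered factors, transgene and native transcripts are counted together. Mef2a held 46.1% ± 0.525 and Mef2d 36.2% ± 0.399 of the MEF2 sum in siControl at day 0, with Mef2c at 17.6% ± 0.931. At day 1 Mef2a was at 16.9% ± 0.537, Mef2d at 10.9% ± 0.382 and Mef2c at 72.2% ± 0.383. By day 3 Mef2a held 20.2% ± 0.582, Mef2d 15.6% ± 0.713 and Mef2c 64.2% ± 0.775. From day 1 to day 3 the level of Mef2a went from 18.6 to 15.5 CPM per kb and that of Mef2d from 12 to 11.9. Mef2c went from 79.7 to 49.1 CPM per kb.

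The GATA sum was mostly Gata4 even before doxycycline, at 81% ± 0.23 in siControl at day 0, with Gata6 at 11.7% ± 0.541, Gata2 at 5.45% ± 0.318 and Gata3 at 1.76% ± 0.0269. At day 1 Gata6 held 3.33% ± 0.181, while its own level was 2.15-fold higher and Gata4 went from 80.3 ± 2.32 to 719 ± 24.5 CPM. Tbx5 held 51.8% ± 1.35 of the T-box sum at day 0, 90.4% ± 0.178 at day 1 and 86.9% ± 0.0662 at day 3. Tbx18, with 20% ± 1.18 the highest of the T-box relatives at day 0, was at 2.97% ± 0.0662 at day 1, and Tbx3 went from 14.6% ± 0.334 to 2.87% ± 0.0839. In siChst7 at day 3 the share of Tbx2 was 3.86% ± 0.358 against 2.38% ± 0.131 in siControl, and that of Tbx18 4.53% ± 0.297 against 3.83% ± 0.0761, with Tbx5 itself at 591 ± 28.3 against 743 ± 2.96 CPM.

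Summed over the native members alone, the MEF2 and T-box relatives ended lower in siControl than they began and the GATA relatives ended higher. The 2 MEF2 relatives together went from 33.6 ± 0.892 CPM per kb at day 0 to 30.7 ± 0.439 at day 1 and 27.4 ± 1.19 at day 3 in siControl. The 3 GATA relatives went from 5.51 ± 0.125 to 9.18 ± 0.178 and then 7.47 ± 0.256. The 5 T-box relatives stood at 31.9 ± 0.835, 32.2 ± 0.287 and 27.6 ± 0.164. In siChst7 the same sums were 29.3 ± 1.05, 29.7 ± 0.584 and 24.9 ± 1.17 for MEF2, 5.28 ± 0.151, 9.56 ± 0.352 and 6.63 ± 0.135 for GATA, and 28.6 ± 1.55, 28.9 ± 0.866 and 27.8 ± 0.825 for T-box.

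**Figure D2:**
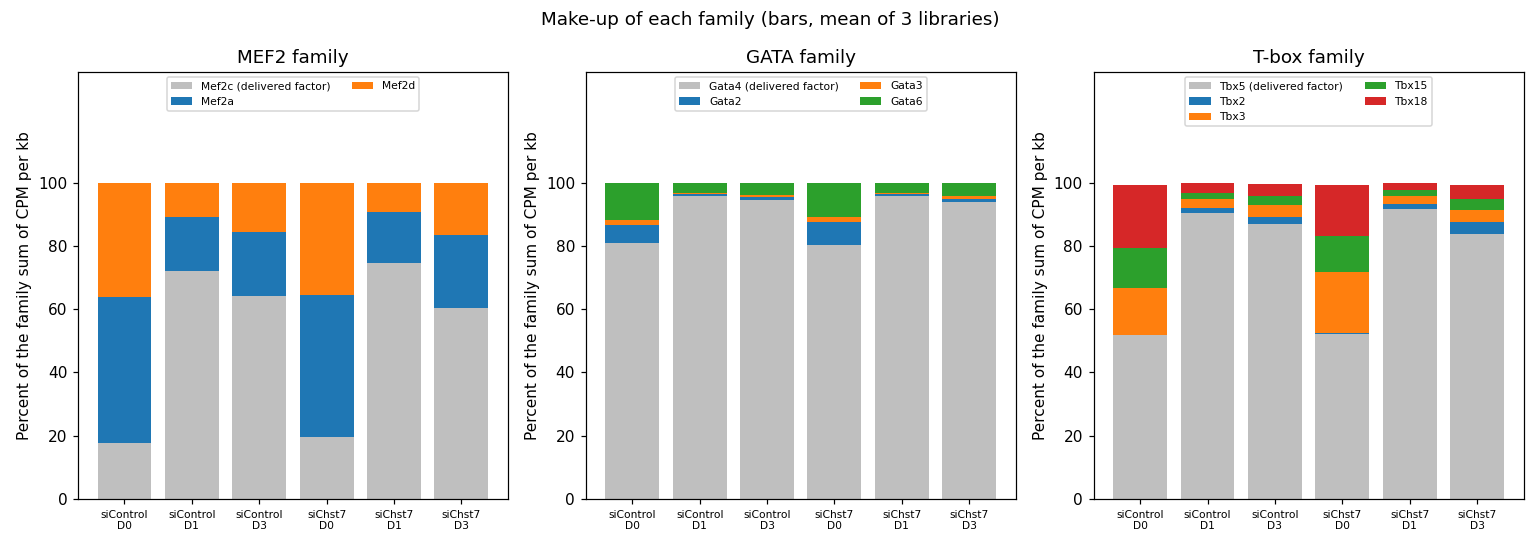
Percent of each family's summed CPM per kb (vertical axis) held by the delivered factor (grey) and each native relative (colours) in the 6 groups (horizontal axis), as means of 3 libraries. The grey share grows at day 1 in all 3 families and is smallest for MEF2, at 72.2% in siControl; T-box genes other than those shown, Tbx20 among them, fill the small gap to 100.

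How alike the relatives and the delivered factors are in sequence bears on whether reads could be shared between them. The first coding exon of the 3 MEF2 genes is shown because it encodes the start of the shared DNA-binding MADS domain, in lower case with capitals where Mef2a or Mef2d differs from Mef2c (GENCODE vM21, GRCm38, 5′ to 3′ on the coding strand). It lies at chr13:83575677-83575730 (plus strand) for Mef2c, chr7:67316792-67316845 (minus) for Mef2a and chr3:88155809-88155862 (plus) for Mef2d.
Mef2c: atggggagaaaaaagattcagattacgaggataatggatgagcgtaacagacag
Mef2a: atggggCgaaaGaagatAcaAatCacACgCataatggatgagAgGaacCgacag
Mef2d: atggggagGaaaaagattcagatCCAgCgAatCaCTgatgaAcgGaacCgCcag
Over these 54 bases Mef2a differed from Mef2c at 11 positions and Mef2d at 13. Over whole coding sequences the longest run of identical bases was 17 between Mef2a and Mef2c and 28 between Mef2d and Mef2c. Against Gata4 it was 23 for Gata2 and 14 for Gata3. The T-box relatives shared at most 20 with Tbx5 (Tbx2 and Tbx15) and as few as 11 (Tbx20). The read length is not given in the sources used here.

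RefSeq promoter windows on GRCm38.p6, 250 bases before to 50 after a start site, were at hand for 6 of the 10 relatives in 7 windows. The 7 windows were searched on both strands for the MEF2 site consensus, for 4 forms of the GATA site (AGATAA or its variant AGATAG, and TGATAA or its variant TGATAG) and for the T-box site AGGTGTG. Mef2a had 1 MEF2 match and Gata3 1 GATA match, and no other match was in these windows (Mef2d, Gata2, Tbx18, Tbx20). Among all 32851 windows, 3.19% held the MEF2 site, 29.8% a GATA form and 5.84% the T-box site. The 2 matches are shown because Mef2a lies in the family of its own site and because Gata3 rose after induction, with the match in capitals, within 30 bases on the gene's strand, at chr7:67372841-67372870 (minus) for Mef2a and chr2:9878551-9878580 (minus) for Gata3.
Mef2a: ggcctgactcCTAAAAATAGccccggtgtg
Gata3: ctgcctggcgccgtctTGATAGtttcagaa
The Mef2a match began 2 bases before the start site and the Gata3 match 37 bases after it. A match is a run of letters and not evidence of binding.

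After 1 day of doxycycline in siControl, 2 of the 9 tested relatives were higher than at day 0, and 4 were lower, by edgeR's quasi-likelihood test at an adjusted p below 0.05. Over all 13802 genes tested, 29.5% were called higher and 30.8% lower. At day 3, 3 relatives were higher and 6 lower, against 33.9% and 39.5% of all genes. From day 1 to day 3, 0 were higher by edgeR (0 also at an unadjusted p below 0.05 and 0 by DESeq2) and 4 were lower, against 22.8% and 32.3%. In siChst7 the counts were 4 higher and 4 lower at day 1 (29.5% and 30.5% of all genes), 3 and 5 at day 3 (37.9% and 37.8%), and 1 and 3 from day 1 to day 3 (31.7% and 33.5%). With so large a part of the transcriptome called, these counts alone do not set the relatives apart. Their median log2 fold change (log2FC) at day 3 was -0.31 in siControl and -0.17 in siChst7, against -0.05 and 0.01 over all genes tested. Over the 4294 tested genes within the relatives' span of lengths it was -0.06 and -0.09. In bulk samples, a change in the number of cells that express a gene and a change in RNA per cell cannot be told apart.

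**Figure D3:**
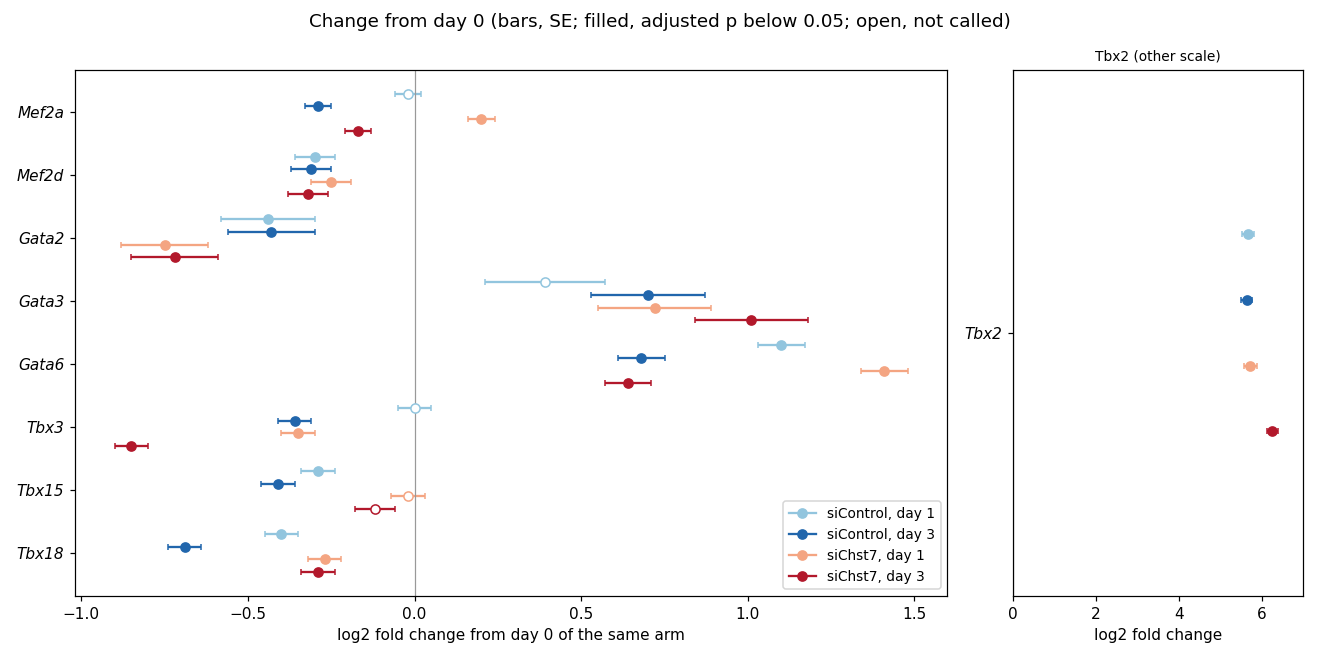
Log2 fold change from day 0 of the same arm (horizontal axis) for the 9 tested relatives, with SE bars, at days 1 and 3 in siControl and siChst7; filled points passed the test and open ones did not. Tbx2, on a wider scale at the right, lies between 5.63 and 6.25, Gata3 and Gata6 lie right of 0, and the other relatives lie at or left of 0 except Mef2a in siChst7 at day 1.

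Mef2a (chromosome 7, 67231163 to 67376456) encodes a MEF2 factor of heart and skeletal muscle. It held steady for 1 day in siControl and then declined. The siControl libraries had 112, 107 and 111 CPM at day 0, 107, 109 and 111 at day 1, and 93.2, 86.3 and 91.5 at day 3. Day 3 lay below both earlier days without overlap, with a log2FC of -0.29 ± 0.04 (SE) against day 0 (adjusted p = 4.22e-06) and -0.27 ± 0.04 against day 1 (adjusted p = 1.84e-05). In siChst7 the path was different: 93.2, 97.6 and 96.5 CPM at day 0, 111, 111 and 108 at day 1 and 85, 89.5 and 80.2 at day 3. It rose by 0.20 ± 0.04 to day 1 (adjusted p = 0.000398), from a day 0 level under every siControl library of that day, and ended below day 0, with a log2FC of -0.17 ± 0.04 (adjusted p = 0.00136). That last call was lost when only the 6 libraries compared were fitted (adjusted p = 0.0706).

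Mef2d (chromosome 3, 88141941 to 88172091), the other MEF2 relative expressed here, dropped within the first day and stayed down. Its siControl levels were 84.6, 79.9 and 82.3 CPM at day 0, 67.9, 69.5 and 63.4 at day 1, and 71.2, 65.4 and 62.6 at day 3. In siChst7 they were 72.2, 66 and 77.9, then 62.6, 59.2 and 59.5, and then 54.8, 60.9 and 57.7 CPM. Day 0 lay above both later days in each arm. The log2FC from day 0 was -0.30 ± 0.06 at day 1 and -0.31 ± 0.06 at day 3 in siControl, and -0.25 ± 0.06 and -0.32 ± 0.06 in siChst7, all called. The fourth MEF2 gene, Mef2b, had at most 4 counts in any library.

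Gata6 (chromosome 18, 11052510 to 11085636), a partner of Gata4 in heart development, was the GATA relative with the highest level in every group. It peaked at day 1. In siControl it went from 10.4, 11.1 and 11.2 CPM to 22.8, 24.5 and 22.9 and back to 17.9, 16.8 and 17.7. In siChst7 it went from 8.55, 8.89 and 10.1 CPM to 25.6, 23.2 and 24.2 and back to 14.8, 13.7 and 14.5. The 3 days did not overlap in either arm. Against day 0 the log2FC was 1.10 ± 0.07 at day 1 and 0.68 ± 0.07 at day 3 in siControl (adjusted p = 7.45e-12 and 1.94e-08), and 1.41 ± 0.07 and 0.64 ± 0.07 in siChst7 (adjusted p = 1.03e-13 and 7.24e-08). The fall from day 1 to day 3 was -0.43 ± 0.07 in siControl and -0.76 ± 0.07 in siChst7. Gata4, delivered and native together, also fell between these days, by 0.67 and 1.12 on the log2 scale.

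The count of Gata6 could include reads of a neighbour. The annotation places 1010001N08Rik on the other strand over the start of Gata6, and the strand setting of the counting is not given in the sources used here. That gene had 4, 7 and 18 counts in siControl at day 0 and 22, 25 and 32 at day 1, against 758 to 854 counts for Gata6 at day 1. Its log2FC at day 1 was 1.81 ± 0.46 (adjusted p = 0.00164).

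Gata3 (chromosome 2, 9857078 to 9887953), known from T cells and from several epithelia, was near the bottom of the range and rose. It had 1.61, 1.7 and 1.63 CPM in siControl at day 0 (70 to 77 counts), 2.29, 2.1 and 2.12 at day 1 and 2.99, 2.06 and 3.05 at day 3. The rise of 0.39 ± 0.18 at day 1 did not pass the test (adjusted p = 0.0608), while that of 0.70 ± 0.17 at day 3 did (adjusted p = 0.000838). Without siControl day 3 replicate 2, the day 1 difference was called as well (0.39, adjusted p = 0.0374). In siChst7 it went from 1.71, 1.61 and 1.42 CPM to 2.4, 3.02 and 2.36 and then 2.99, 3.08 and 3.48, and both differences from day 0 were called (0.72 ± 0.17 and 1.01 ± 0.17). In every library, day 1 and day 3 lay above day 0 of the same arm. Epithelial markers summed to at most 2.72 CPM in any library.

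Gata2 (chromosome 6, 88193891 to 88207032), a regulator of blood and endothelial cells, moved the other way. Its siControl levels were 5.39, 5.34 and 4.7 CPM at day 0, 3.73, 3.33 and 4.33 at day 1 and 3.81, 4.24 and 3.4 at day 3. In siChst7 they were 6.51, 6.11 and 5.95, then 3.93, 3.77 and 3.35, and then 3.08, 4.41 and 3.74 CPM. The log2FC from day 0 was -0.44 ± 0.14 and -0.43 ± 0.13 in siControl (adjusted p = 0.00844 and 0.00651), and -0.75 ± 0.13 and -0.72 ± 0.13 in siChst7 (adjusted p = 4.25e-05 and 4.94e-05). The siControl call at day 1 was lost without replicate 2 of that group (log2FC -0.35, adjusted p = 0.053), and that at day 3 with library totals in place of TMM (-0.28, adjusted p = 0.0753), a setting that raises the median of all genes from -0.05 to 0.10. The sum of 7 endothelial markers fell beside it in siControl, from 2.41 to 2.76 CPM to between 0.421 and 0.523 at day 1. At day 3 it was 0.869 to 1.55 CPM, and Tie1 and Emcn were at 0 counts at day 0. Most of the fall was that of Cdh5, at 1.87, 0 and 0.00765 CPM on the 3 days. The means of Pecam1 (0.149, 0.136 and 0.0741 CPM) and Kdr (0.105, 0 and 0 CPM) also fell. Tek rose (0.18, 0.213 and 0.345 CPM), and Erg was higher at day 3 (0.27, 0.138 and 0.833 CPM). Means this low rest on few counts, and these marker changes were not tested. The sum of 6 blood cell markers went from between 17.5 and 19.2 CPM to between 5.75 and 6.89 and then 7.31 to 9.92. It was mostly Cd68, at 18, 4.49 and 6.43 CPM. Csf1r rose (0.503, 1.69 and 2.11 CPM), Kit went from 0 to 0.119 CPM at day 3, and Ptprc was at most 0.0689 CPM. The part of the endothelial and blood cell markers in the Gata2 change was not tested.

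Tbx2 (chromosome 11, 85832615 to 85841948), a repressor of chamber muscle genes, was by far the strongest mover among the relatives. It had 0.231, 0.421 and 0.446 CPM in siControl at day 0, from 10, 19 and 20 counts. It then had 18, 19 and 19 CPM at day 1, from 599 to 663 counts, and 18.1, 17.5 and 19.6 at day 3. The day 1 and day 3 levels overlapped, with a log2FC of 5.66 ± 0.14 (adjusted p = 3.69e-19), 50.5-fold, and 5.63 ± 0.14 at day 3. Of the 13802 genes tested it ranked 60th from the top at day 1. For Mef2c, Gata4 and Tbx5 the log2FC at day 1 was 3.47, 3.16 and 3.16, from day 0 levels of 47.1, 80.3 and 137 CPM.

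In siChst7 Tbx2 went from 0.297, 0.294 and 0.372 CPM to 18.7, 15.3 and 17.1 and then rose further to 26.3, 22.9 and 24.6. The step from day 1 to day 3 was 0.53 ± 0.09 there (adjusted p = 1.27e-05), whereas in siControl it was -0.02 ± 0.09. A difference in the whole change from day 0 to day 3 between the arms did not pass the test (0.62 ± 0.30, adjusted p = 0.109), and it rests on 10 to 20 counts per library at day 0. It was called without siControl day 0 replicate 1, the library with 10 counts (0.85, adjusted p = 0.0282). The annotation holds 2610027K06Rik 327 bases upstream of Tbx2, on the other strand and without overlap, chosen after the annotation was seen. It had 0, 0 and 4 counts in siControl at day 0, 7, 16 and 5 at day 1 and 25, 20 and 16 at day 3.

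Tbx3 (chromosome 5, 119670534 to 119684724), a close relative of Tbx2 with a like role in the conduction system, showed no such rise. In siControl it had 48.1, 46.4 and 47.8 CPM at day 0 and 47.5, 48.4 and 46.4 at day 1, which overlap, and 38, 36.4 and 36.3 at day 3. The log2FC at day 3 was -0.36 ± 0.05 (adjusted p = 2.53e-06). In siChst7 it started higher and fell earlier: 57.7, 52.5 and 60.4 CPM, then 46.6, 42.4 and 44.7, then 31.1, 32.6 and 30.9. The log2FC from day 0 was -0.35 ± 0.05 at day 1 and -0.85 ± 0.05 at day 3 (adjusted p = 4.78e-06 and 2.96e-12).

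Tbx15 (chromosome 3, 99240348 to 99354260), a T-box repressor of limb and skin mesenchyme, declined in siControl from 28.7, 32.1 and 31 CPM to 25.5, 24.4 and 25 and then 22.7, 23.6 and 22.8. The log2FC was -0.29 ± 0.05 at day 1 and -0.41 ± 0.05 at day 3, both called. The siChst7 libraries were nearly level, at 25.1, 23.5 and 24.5, then 24.2, 24.4 and 23.5, then 22.7, 22.4 and 22.2 CPM. Their log2FC was -0.02 ± 0.05 at day 1 (adjusted p = 0.764) and -0.12 ± 0.06 at day 3 (adjusted p = 0.052). The day 3 difference was called, at -0.12 to -0.15, without siControl day 0 replicate 1 or 2 or siChst7 day 0 replicate 2 (adjusted p = 0.0386, 0.0465 and 0.0343), and with Rn45s left out, an alternative chosen after seeing the data (-0.13, adjusted p = 0.0415).

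Tbx18 (chromosome 9, 87702800 to 87731260), a T-box repressor of the epicardium and the sinus horn, had the largest decline among the T-box relatives in siControl. It had 62.7, 59.4 and 66.2 CPM at day 0, 47.9, 48.1 and 46.7 at day 1 and 38.2, 39.5 and 39.2 at day 3, with no overlap between days. The log2FC was -0.40 ± 0.05 and -0.69 ± 0.05 (adjusted p = 1.11e-06 and 1.14e-10). In siChst7 it fell from 44.5, 44.5 and 49.9 CPM to 38.1, 38.2 and 38.7 at day 1 (-0.27 ± 0.05) and was at 40.2, 36.6 and 37 at day 3 (-0.29 ± 0.05). A list of 6 mesothelial or epicardial markers moved the other way, from a sum of 32.1 to 34.6 CPM to between 99.3 and 106 CPM at day 3 in siControl, with Aldh1a2 at 0 counts, and 1 and then 2 of the 6 above 1 CPM. In siChst7 the list summed to between 18.3 and 20.5 CPM at day 0, 30.9 and 36 at day 1 and 106 and 110 at day 3. Most of each sum was Msln, at 32.9 and 99.5 CPM at days 0 and 3 in siControl and 19.3 and 105 CPM in siChst7. The part of these markers in the Tbx18 change was not tested.

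Tbx20 (chromosome 9, 24720812 to 24774303), which works beside Tbx5 and Gata4 in the heart, was not detected above the floor in any group. Each of the 18 libraries held between 0 and 2 counts. A count of 0 allows up to 3 counts, or 0.0595 to 0.0966 CPM depending on the library, for counting error only. No fold change is given.

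The question of whether Chst7 knockdown touched these relatives was asked on each day. At day 0, before doxycycline, 1 relative was higher and 5 were lower in siChst7 than in siControl, against 13.9% higher and 13.5% lower among all genes. At day 1, 0 were higher by edgeR (0 also at an unadjusted p below 0.05 and 0 by DESeq2) and 1 was lower (8.86% and 8.72% of all genes). At day 3, 1 was higher and 3 were lower (23.1% and 21.6%). The median log2FC of the relatives was -0.20, -0.06 and -0.04 on the 3 days, with 0.01 over all genes on each.

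At day 0 the largest difference was that of Tbx18, with 44.5 to 49.9 CPM in siChst7 against 59.4 to 66.2 in siControl and a log2FC of -0.44 ± 0.05 (adjusted p = 1.54e-06). Tbx15 followed at -0.33 ± 0.05 (adjusted p = 6.65e-05), then Gata6 at -0.25 ± 0.07 (adjusted p = 0.016), Mef2a at -0.20 ± 0.04 (adjusted p = 0.00123) and Mef2d at -0.19 ± 0.06 (adjusted p = 0.0193). Tbx3 was the relative that was higher, at 0.26 ± 0.05 (adjusted p = 0.000567). The calls of Gata6 and Mef2d were lost with library totals (adjusted p = 0.0624 and 0.122). They were also lost without single libraries: Gata6 without siControl day 0 replicate 2 or 3 or siChst7 day 0 replicate 1 or 2 (adjusted p up to 0.0948), and Mef2d without siControl day 0 replicate 1 or 3 or siChst7 day 0 replicate 2 (up to 0.133).

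The gap in Tbx18 persisted at day 1, at -0.31 ± 0.06 (adjusted p = 0.000323), and was -0.04 ± 0.06 at day 3, where the libraries of the arms overlapped. The sum of the mesothelial or epicardial markers was lower in siChst7 beside Tbx18, at 18.3 to 20.5 against 32.1 to 34.6 CPM at day 0. It was 30.9 to 36 against 49.5 to 52.9 CPM at day 1, and 106 to 110 against 99.3 to 106 CPM at day 3. Most of it was Msln, at 19.3 against 32.9 CPM at day 0 and 31.4 against 50 at day 1. Wt1 had a higher mean in siChst7 on both days (0.0737 against 0.0376 and 0.199 against 0.0584 CPM). At day 0 both Wt1 means were near or under the level of 3 counts per library, and neither difference was tested. Krt19 was lower at day 0 (0.0702 against 0.285 CPM) and higher at day 1 (0.987 against 0.402). The part of these markers in the Tbx18 gap was not tested. At day 3 Tbx2 was higher in siChst7 (22.9 to 26.3 against 17.5 to 19.6 CPM, log2FC 0.42 ± 0.08, adjusted p = 0.000394). Among the others, Gata6 was lower, at -0.28 ± 0.07 (adjusted p = 0.00274), as were Tbx3 at -0.22 ± 0.05 (adjusted p = 0.00205) and Mef2d at -0.20 ± 0.06 (adjusted p = 0.0108). The Mef2d call was lost without siChst7 day 3 replicate 1 (-0.16, adjusted p = 0.0622) or siControl day 3 replicate 1 (-0.15, adjusted p = 0.0767), whereas those of Tbx2, Gata6 and Tbx3 were kept without any 1 library. Mef2a was not called (-0.09, adjusted p = 0.116), but was called lower under 6 alternatives. These were DESeq2 size factors (adjusted p = 0.0283), library totals (0.0366), no filter on low counts (0.0478), the stricter filter (0.0429), the DESeq2 test (0.0231) and leaving out siChst7 day 3 replicate 2 (0.016), with log2FC from -0.11 to -0.14. Mef2d at day 1 (-0.15, adjusted p = 0.104) was called with that library left out (adjusted p = 0.0414) and with the compared libraries alone (0.00615). The delivered factors were lower too at day 3, by 0.37 for Mef2c, 0.36 for Gata4 and 0.33 for Tbx5 on the log2 scale.

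Gene length moved with the differences that involve siChst7 at day 3. Across the 13802 genes the rank correlation of log2FC, siChst7 against siControl, with deposited length was -0.33 at day 3, -0.07 at day 1 and 0.05 at day 0. Within siChst7 it was -0.17 for day 3 against day 0 and -0.22 for day 3 against day 1, and within siControl -0.01 and -0.04. The tested relatives are 3194 to 5843 bases long, against a median of 2881.5 over all tested genes. The 4294 tested genes of that span had a median log2FC of -0.06 between the arms at day 3, against 0.01 for all genes. The part of length in the differences of Gata6, Tbx3 and Mef2d, or in the day course of siChst7, was not tested.

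**Figure D4:**
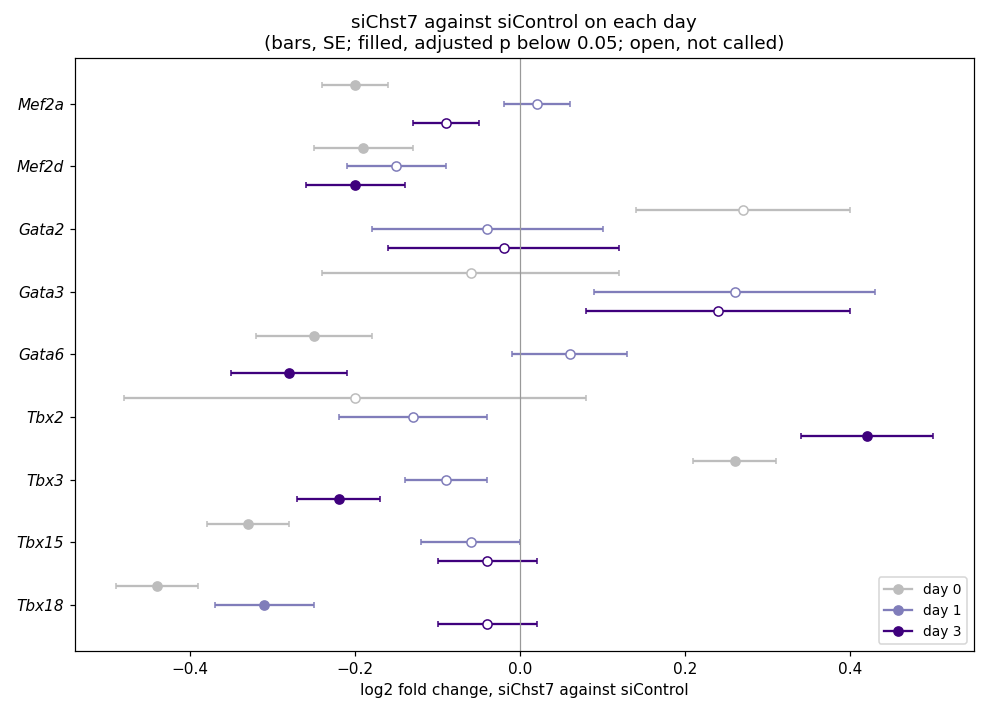
Log2 fold change of siChst7 against siControl (horizontal axis) for the 9 tested relatives at days 0, 1 and 3, with SE bars; filled points passed the test and open ones did not. Tbx18 moves from -0.44 at day 0 to -0.04 at day 3, Tbx3 from 0.26 to -0.22, and Tbx2 lies at 0.42 at day 3.

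Whether the day course itself differed between the arms was tested as the change from day 0 in siChst7 minus that in siControl. Of the 9 relatives 3 were called at day 1, against 11.7% of all genes, and 3 at day 3, against 38.8%. Tbx3 was called on both days, at -0.35 ± 0.07 at day 1 (adjusted p = 0.0028) and -0.49 ± 0.08 at day 3 (adjusted p = 3.42e-05), and kept both calls under every alternative run. Tbx18 was called at day 3, at 0.40 ± 0.08 (adjusted p = 0.000289), and this too was kept. Tbx15 was called on both days, at 0.27 ± 0.08 (adjusted p = 0.023) and 0.29 ± 0.08 (adjusted p = 0.00492), and Mef2a at day 1, at 0.22 ± 0.06 (adjusted p = 0.0238). For Tbx15 and Mef2a these calls were lost with library totals (adjusted p = 0.109, 0.0814 and 0.18), that of Mef2a also with upper quartile scaling (0.0555), and those of Tbx15 also without a filter on low counts (0.0866 and 0.094). The day 1 call of Mef2a was lost without siControl day 0 replicate 1 or 3, siControl day 1 replicate 1, siChst7 day 0 replicate 1 or siChst7 day 1 replicate 1 or 2 (adjusted p = 0.0522 to 0.0657). That of Tbx15 was lost without siControl day 0 replicate 2 or 3 or replicate 2 of siControl day 1, siChst7 day 0 or siChst7 day 1 (adjusted p = 0.0538 to 0.0745). Gata6 at day 1 had a term of 0.30 ± 0.10 that was not called (adjusted p = 0.0554), but was with the DESeq2 test (0.0453) and without siChst7 day 0 replicate 3 (0.38, adjusted p = 0.0153) or siChst7 day 3 replicate 2 (0.30, adjusted p = 0.0352).

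The positive terms of Mef2a, Tbx15 and Tbx18 go with day 0 levels that were already lower in siChst7, and the negative terms of Tbx3 with one that was higher. For Tbx15 the arms were 6.83 ± 0.228 against 8.58 ± 0.488 CPM per kb at day 0 and 6.28 ± 0.0741 against 6.45 ± 0.14 at day 3. The levels of Mef2a differed by 0.02 ± 0.04 on the log2 scale at day 1 (adjusted p = 0.857). Only Tbx3 had called differences of opposite sign at day 0 and day 3.

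A wider list added proteins that carry a GATA-type zinc finger or a T-box, which were not in the family sums (Mga, Trps1, Gatad1, Gatad2a and Gatad2b). Among the other genes of the families and this list that passed the filter, Eomes and Tbx6 rose from low levels and Mga and Gatad2a fell. Eomes, a T-box factor of the early embryo, went from 0.369 to 1.31 CPM in siControl at day 3 (log2FC 1.84 ± 0.29) and from 0.251 to 1.4 CPM in siChst7 (2.46 ± 0.31). Tbx6, a T-box factor of the paraxial mesoderm, went from 0.369 to 1.02 CPM (1.46 ± 0.32) and from 0.308 to 1.28 CPM (2.01 ± 0.32). Mga, a large protein that joins a T-box to a Max-binding domain, fell by 0.67 and 0.81 on the log2 scale from 149 and 164 CPM. Gatad2a, a subunit of the NuRD repressor complex, fell by 0.27 and 0.51, and its difference between the arms at day 3 was -0.27 ± 0.05. Gatad1 was called higher at day 1 in both arms (0.40 and 0.41), and Gatad2b was called lower in siChst7 than siControl at day 3 (-0.20 ± 0.08, adjusted p = 0.0484). Trps1, a GATA-type repressor, was 0.44 ± 0.08 higher in siChst7 at day 0, and its change from day 0 differed between the arms at both days (-0.49 and -0.55).

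The counts of listed genes that follow stand beside 33.9% of all genes called higher and 39.5% lower at day 3 in siControl, 37.9% and 37.8% in siChst7, and 23.1% and 21.6% in siChst7 against siControl at day 3. Cofactors and regulators of the MEF2 proteins moved in both directions. Of 15 tested, 6 were higher and 6 lower at day 3 in siControl, with a median log2FC of -0.09. Hdac9, a class II deacetylase that restrains MEF2, rose by 3.67 ± 0.08, Sik1, a kinase that inhibits such deacetylases, by 3.26 ± 0.06, and the deacetylase Hdac5 by 0.93 ± 0.05. In siChst7 at day 3, 10 of the 15 were lower than in siControl (21.6% of all genes were), among them Hdac9 at -0.74 ± 0.07, Hdac5 at -0.37 ± 0.05 and the calcium-dependent kinase Camk2d at -0.27 ± 0.04. The part of gene length in this count, for which the rank correlation over all genes was -0.33, was not tested.

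Of 7 tested GATA cofactors, 3 were higher and 4 lower at day 3 in siControl. The FOG cofactors parted: Zfpm1 rose by 2.28 ± 0.07, and Zfpm2, the one known for its part with Gata4 in the heart, had a log2FC of -1.33 ± 0.05. Srf, a partner of GATA factors on muscle genes, had one of -1.23 ± 0.05. In siChst7 against siControl at day 3, 2 were lower (Zfpm1 at -0.18 ± 0.06 and Zfpm2 at -0.16 ± 0.06). Among 10 tested T-box cofactors and corepressors, 5 were higher and 2 lower at day 3 in siControl. Smarcd3, the cardiac chromatin remodelling subunit that works with Tbx5, rose by 1.35 ± 0.05, Tle3 by 0.58 ± 0.06, and Chd4 had a log2FC of -0.52 ± 0.05. Between the arms at day 3, 1 was higher in siChst7 than in siControl (Hdac2, 0.49 ± 0.06) and 4 were lower, among them Chd4 and Smarcd3 at -0.28 ± 0.05 and -0.26 ± 0.05. The part of gene length in the differences of these cofactors between the arms was not tested.

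The delivered factors also act on the target genes of the families. Of 14 MEF2 targets, beside 33.9% of all genes called higher and 39.5% lower, 10 were higher and 3 lower at day 3 in siControl, with a median log2FC of 5.21, and in siChst7 10 were higher and 4 lower, with 4.88. Myom2 rose by 6.00 ± 0.08, Des by 4.69 ± 0.10 and Myl4 by 7.12 ± 0.15, all genes of the contractile apparatus. Of 10 tested GATA targets, 8 were higher and 2 lower in both arms. Tnnc1 rose by 6.85 ± 0.17, and Edn1, which encodes endothelin, had a log2FC of -4.59 ± 0.13. Actc1, the cardiac actin, had 2 counts over the 3 libraries at day 0 and 13177 at day 3. In siChst7 against siControl at day 3, 3 MEF2 targets were higher and 5 lower, with a median log2FC of -0.09. Among them Tnnc1, which is in both lists, was at 1.05 ± 0.11, Xirp1 at 0.64 ± 0.09 and Myom2 at -0.32 ± 0.06. In the same comparison 5 GATA targets were higher and 1 was lower, with a median of 0.62: Nppb was at 1.42 ± 0.12, Tnnc1 at 1.05 ± 0.11 and the endocytic adaptor Dab2 at -0.83 ± 0.04. The siChst7 libraries spread widely for Tnnc1 (493 ± 125 against 238 ± 6.31 CPM in siControl) and Nppb (56 ± 11.5 against 20.9 ± 1.53). The part of gene length in these differences, with a rank correlation of -0.33 over all genes, was not tested.

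Of 5 tested genes known to be repressed by Tbx2 or Tbx3, 3 were higher and 1 lower at day 1 in siControl (29.5% and 30.8% of all genes). At day 3, 4 were higher and 1 lower (33.9% and 39.5% of all genes). In siChst7, 3 were higher and 1 lower than at day 0 on both days. The shares of all genes there were 29.5% and 30.5% at day 1 and 37.9% and 37.8% at day 3. The values that follow are for siControl. At day 3 the cell cycle inhibitors Cdkn1a and Cdkn2a were at 2.02 ± 0.05 and 1.04 ± 0.04, and the natriuretic peptide gene Nppa at 3.55 ± 0.24. In siChst7 against siControl at day 3, where Tbx2 was higher and Tbx3 lower, Nppa was higher (1.44 ± 0.16), and the gap junction gene Gja1 (-0.46 ± 0.04) and Cdkn1a (-0.16 ± 0.05) were lower. The part of gene length in these differences between the arms was not tested.

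The genes whose levels ran most like each relative over the 18 libraries were found by Pearson's correlation of log2 CPM among 9908 candidates, as a description, since all libraries share the same 6 groups and totals. Tbx2 ran closest to Tspan2 and Cacnb4 (0.996 for both), and Gata6 to Micu2 and Clasp2 (0.984 for both). Tbx3 was nearest to Hp1bp3 (0.983) and Chpf2 (0.970), and Tbx18 to Slc16a3 (0.961) and Papd5 (0.955). For Tbx15 they were Stbd1 (0.946) and Bdnf (0.937), for Mef2a Tbl1x (0.962) and Rnf217 (0.957), and for Mef2d Cmip (0.956) and Nfix (0.937). The low genes had weaker matches, with Tssc1 (0.935) and Tmem5 (0.925) for Gata3 and Gbe1 (0.922) and Irx3 (0.921) for Gata2.

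Genes that overlap the other relatives and are in the table had low counts beside Mef2a and Mef2d. Lysmd4, which overlaps Mef2a, had 229 to 568 counts per library against 2491 to 4972 for Mef2a, and it rose where Mef2a fell (0.81 ± 0.12 at day 3 in siControl). The gene 1700113A16Rik at the end of Mef2d had 5 to 25 counts. At Gata3, 4930412O13Rik and 9230102O04Rik had at most 2 counts in any library. The last of these lies on the strand of Gata3.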

How the data were processed

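RNA was sequenced from 18 libraries in 6 groups of 3. The authors deposited raw counts of reads per gene, with a gene length. Per the submitters' processing notes they used HISAT2, Subread, featureCounts and DESeq2 with mm10. No version, annotation release or strand setting is given in the sources used here. Genes were found by symbol. Counts were tested with edgeR 4.0.16 (R 4.3.3): filterByExpr, which kept 13802 genes, TMM, and 1 quasi-likelihood fit of all libraries with 12 residual degrees of freedom. A gene was called at a two-sided Benjamini-Hochberg adjusted p below 0.05 over all genes tested. SE values come from the F-test, as the absolute log2 fold change over the square root of F. The fit was tested on simulated data.

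Members and gene lists were chosen with earlier results of these data known. Named genes were the members, the delivered factors and Chst7, tested family genes, up to 3 called genes of smallest p per list in 2 comparisons, the 2 likest genes per member with a mean of at least 5 CPM, and genes overlapping on the other strand. Outside this rule, 2610027K06Rik (near Tbx2) and 9230102O04Rik (same strand as Gata3) were added after the annotation was seen. Levels are CPM on TMM-scaled totals, with SD. Alternatives were other scalings, filters, DESeq2 1.42.0, a replicate block, only the libraries compared, and leaving out each library. Replicates differed by more than sampling noise.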

Additional observations from a re-analysis of the deposited data

Results flagged for a closer look

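The change from day 0 differed between the siRNA arms for 4 of the 9 tested relatives, by the test of the difference itself, siChst7 minus siControl on the log2 scale. There were 3 at each day, beside 11.7% of all genes at day 1 and 38.8% at day 3. At day 1 the terms were 0.22 for Mef2a, -0.35 for Tbx3 and 0.27 for Tbx15. At day 3 they were -0.49 for Tbx3, 0.29 for Tbx15 and 0.40 for Tbx18. The siChst7 day 3 libraries vary more among themselves, with replicate 2 furthest from the others. Leaving out replicate 1, the one with the most Rn45s, gave -0.48 for Tbx3, 0.28 for Tbx15 and 0.36 for Tbx18, all still called. With each library left out in turn, replicate 2 among them, the day 3 terms ran from -0.54 to -0.44 for Tbx3. They ran from 0.25 to 0.33 for Tbx15 and 0.36 to 0.46 for Tbx18, and no day 3 call was lost in these fits. With library totals in place of TMM, the calls of Mef2a (adjusted p = 0.18) and of Tbx15 at day 1 (0.109) and day 3 (0.0814) were lost, whereas those of Tbx3 and Tbx18 were kept.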

How the results depend on the processing

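Of 99 tests of a relative, 56 were called. Of these 47 kept call and direction under every alternative run and 9 lost the call under at least 1, while 0 reversed. A further 8 were called under at least 1 alternative. The stricter filter on low counts left no value for Gata2 and Gata3. The number of relatives higher at day 3 than day 1 in siControl was 1, in place of 0, with upper quartile scaling or library totals, and 0 to 1 with a library left out (1 without siControl day 3 replicate 2). In siChst7 it was 2, in place of 1, with library totals. The number lower in siChst7 at day 0 was 3, in place of 5, with library totals, and 3 to 5 with a library left out (3 without siControl day 0 replicate 3 or siChst7 day 0 replicate 2). At day 1 it was 2, in place of 1, when only the compared libraries were fitted, and 1 to 2 with a library left out (2 without siChst7 day 3 replicate 2). At day 3 it was 4, in place of 3, with DESeq2 size factors, library totals, no filter, the stricter filter or the DESeq2 test, and 2 to 4 with a library left out (2 without siControl or siChst7 day 3 replicate 1, 4 without siChst7 day 3 replicate 2). The number whose change to day 1 differed between the arms was 1, in place of 3, with library totals, and 1 to 4 with a library left out (1 without siControl day 0 replicate 3 or siChst7 day 1 replicate 2). The cause of these shifts was not tested.

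Uncalled differences near 0 changed sign. For day 3 against day 1 in siControl, Mef2d was at 0.05 with DESeq2 size factors, without a filter, with the compared libraries alone and in the DESeq2 test, 0.09 with upper quartile scaling or the stricter filter and 0.14 with library totals. Tbx2 was at 0.04, 0.03, 0.04 and 0.04 in the first 4 of these, 0.08 in the next 2 and 0.12 with library totals, and Tbx15 at 0.03 with library totals. For the same days in siChst7, upper quartile scaling, library totals and the stricter filter gave 0.02, 0.04 and 0.01 for Mef2d and 0.07, 0.09 and 0.06 for Tbx18. The difference between the arms in the change of Mef2d to day 1 was -0.02 with library totals. With a library left out in turn, day 3 against day 1 in siControl ran from -0.06 to 0.05 for Mef2d, -0.08 to 0.11 for Gata2 and -0.07 to 0.03 for Tbx2, and in siChst7 from -0.12 to 0.15 for Gata2 and -0.06 to 0.02 for Tbx18. In siChst7 against siControl, Gata3 ran from -0.12 to 0.01 at day 0, and Gata2 from -0.13 to 0.06 at day 1 and -0.17 to 0.10 at day 3. The difference in change ran from -0.01 to 0.10 for Mef2d and -0.10 to 0.30 for Tbx2 at day 1, and from -0.07 to 0.05 for Mef2d and -0.09 to 0.04 for Gata6 at day 3.

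Same-numbered libraries did not deviate together (0 of 45 pairs with r over 0.1, from -0.07 to 0.07). With a replicate block, 6 relatives were lower and 3 higher at day 3 in siControl, as without it, and the block changed no call of a relative. With library totals, the share of higher calls among all genes moved from 46.2% to 57.8% for siControl day 3 against day 0, from 41.4% to 65% against day 1 (57.3% with upper quartile scaling), and from 48.6% to 60.9% for siChst7 day 3 against day 1. It moved from 50.6% to 69.4% for siChst7 against siControl at day 0, and for the difference in change from 53% to 30.2% at day 1 and from 53.3% to 35.7% at day 3. Levels of Tbx2 at day 0 and of Tbx20 are limited by depth.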
